A study of Homo sapiens with 6 samples.

Results

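The IFIT family comprised 4 genes, IFIT1, IFIT2, IFIT3 and IFIT5, out of 26899 genes with reads in 6 RNA-seq libraries of HK-2 cells. The genes were taken by symbol and had been chosen by their read counts in the comparison of the 2 groups, whose result was already known. Their levels in that comparison are therefore given as a description and no p-value is attached to them. HK-2 is a cell line from the proximal tubule of a human kidney, transformed with a papillomavirus. In 3 libraries the cells were titled WT (wild type) and described as shCtrl, named control replicates 1 to 3 below, and in the other 3 they were titled ANXA2 knockdown and described as shANXA2, named knockdown replicates 1 to 3. Plasmids were delivered with a lipid reagent, and all groups shared the same medium with fetal serum. The labels do not settle whether the controls carried a control hairpin, which hairpin sequence was used, or whether the replicates were separate cultures. Any p-value below therefore measures only the spread between these libraries.

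IFIT proteins are built from tetratricopeptide repeats and act in the cytosol against foreign RNA. IFIT1 binds messenger RNA whose cap lacks the ribose methylation of host transcripts and keeps it from being translated. IFIT3 and IFIT2 assemble with IFIT1, and IFIT3 stabilises it, while IFIT5 binds RNA ends that carry a triphosphate. Interferon induces the genes through the transcription factor complex ISGF3, which binds a DNA motif called the interferon-stimulated response element, and IRF3 can induce some of them without interferon.

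The targeted gene was examined first. ANXA2 had 40453, 47742 and 52187 reads in the libraries labelled shCtrl (replicates 1, 2 and 3) and 52479, 51549 and 43849 reads in those labelled shANXA2. In reads scaled to a common library size (CPM), ANXA2 was 1539 ± 21.3 in the libraries labelled shANXA2 and 1598 ± 119 in those labelled shCtrl (SD, n = 3), and the groups overlapped. The target transcript thus does not bear out the labels, and higher or lower refers below to the labels alone. The 6 libraries held 24231267 to 34561675 counted reads. The fewest were in control replicate 1 (24231267) and knockdown replicate 3 (28866835). These libraries also had the fewest genes with reads, 18861 and 19569, against 20764 to 21819 in the others. The epithelial keratin gene KRT8 had 1223 ± 136 CPM in the libraries labelled shANXA2 and 1099 ± 218 CPM in the controls. The renal transcription factor gene PAX8 had 556.7 ± 147 and 477.5 ± 117 CPM in the same order, with overlap in both genes. The brush-border genes LRP2, ANPEP and CUBN had 1, 18 and 34 reads in all. The cadherin gene CDH1 had 9 reads in the controls and 33 in the libraries labelled shANXA2. CDH2, another cadherin gene, had 159.6 ± 13.2 CPM in the controls and 134.6 ± 3.83 CPM in the libraries labelled shANXA2, without overlap. Of 3 fibroblast markers, LUM had 25.5 ± 1.66 and 22.7 ± 2.67 CPM in that order, with overlap. The other fibroblast markers had few reads, 37 and 25 for PDGFRB and 10 and 4 for DCN in the same order. Of 10 leukocyte markers 6 were listed, and PTPRC, CD3E and TYROBP were among those not listed. The leukocyte markers summed to 5.29 to 8.51 CPM in the libraries labelled shCtrl and 7.41 to 11.5 CPM in those labelled shANXA2, and their part in the values below was not tested.

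The 4 genes lie in 1 cluster. In GRCh38 with the annotation of GENCODE release 44, the cluster spans 137.9 kb on the plus strand of chromosome 10, from 89283694 to 89421605. IFIT2 (ENSG00000119922.8) lies from 89283694 to 89309271, IFIT3 (ENSG00000119917.13) from 89327307 to 89377473, IFIT1 (ENSG00000185745.9) from 89392546 to 89406487 and IFIT5 (ENSG00000152778.8) from 89414568 to 89421605. The versions of these identifiers are those of the deposited counts, whose annotation release is not given. The relative IFIT1B sits between IFIT3 and IFIT1. LIPA, the lysosomal acid lipase gene, runs on the opposite strand from 89213569 to 89414557 and so spans most of the cluster. Of the exonic bases of IFIT2, 589 of 4326 are also exonic in LIPA or in the noncoding gene ENSG00000232110. For IFIT3 the overlap is 94 of 5067 exonic bases, with LIPA, and for IFIT1 and IFIT5 it is 0.

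The members can be told apart by their sequence. Over the longest annotated coding sequences, identity was highest between IFIT2 and IFIT3 (73.4% of aligned bases) and between IFIT1 and IFIT5 (67.2%) among the 4 members. It was lowest between IFIT2 and IFIT5 (61.4%). IFIT1B shared 79% of aligned coding bases with IFIT1. Of the 100-base windows of IFIT1, IFIT3 and IFIT5 transcripts, 0 occurred exactly in transcripts of another gene, and for IFIT2 it was 328 of 5226 windows, all shared with ENSG00000232110.

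Promoter sequences were examined because the members lay on the same side of the comparison and share an inducer. The RefSeq table (GRCh38.p14) gave windows of 250 bases before to 50 bases after a start for 3 of the 4 members, IFIT1, IFIT3 and IFIT5, and not for IFIT2. The bases before the start are printed for these and for IFIT1B, all on the plus strand of chromosome 10, with capitals on each match to the core of the response element, GAAANNGAAA on either strand. The windows are chr10:89392373-89392622 for IFIT1, chr10:89327747-89327996 and chr10:89332279-89332528 for the starts of IFIT3, chr10:89414318-89414567 for IFIT5 and chr10:89377806-89378055 for IFIT1B.
IFIT1: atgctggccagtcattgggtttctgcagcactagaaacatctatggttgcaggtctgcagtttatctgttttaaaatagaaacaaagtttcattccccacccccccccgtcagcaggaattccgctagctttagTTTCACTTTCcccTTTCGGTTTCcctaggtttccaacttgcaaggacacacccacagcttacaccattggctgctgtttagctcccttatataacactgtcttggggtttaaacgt
IFIT3, start 1: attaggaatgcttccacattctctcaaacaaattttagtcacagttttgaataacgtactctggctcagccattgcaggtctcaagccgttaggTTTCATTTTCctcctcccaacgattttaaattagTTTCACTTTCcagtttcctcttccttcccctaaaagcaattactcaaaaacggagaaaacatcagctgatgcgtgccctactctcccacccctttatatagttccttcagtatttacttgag
IFIT3, start 2: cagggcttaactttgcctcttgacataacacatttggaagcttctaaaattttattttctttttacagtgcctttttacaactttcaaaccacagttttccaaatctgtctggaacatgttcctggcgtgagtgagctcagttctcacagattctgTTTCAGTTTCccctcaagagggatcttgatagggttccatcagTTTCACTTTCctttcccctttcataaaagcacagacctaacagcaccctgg
IFIT5: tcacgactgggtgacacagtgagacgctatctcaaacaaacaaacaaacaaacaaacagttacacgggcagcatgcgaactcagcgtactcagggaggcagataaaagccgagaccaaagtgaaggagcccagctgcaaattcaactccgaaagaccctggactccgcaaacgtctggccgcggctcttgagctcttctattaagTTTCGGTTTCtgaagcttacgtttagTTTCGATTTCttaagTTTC
IFIT1B: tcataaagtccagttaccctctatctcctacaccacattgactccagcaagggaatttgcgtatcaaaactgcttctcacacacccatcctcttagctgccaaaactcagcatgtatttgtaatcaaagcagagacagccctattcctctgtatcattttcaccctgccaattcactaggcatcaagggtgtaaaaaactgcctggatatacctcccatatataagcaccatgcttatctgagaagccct
The core was found in at least 1 window of all 3 members with a window and in 3.57% of all 35116 promoter windows. Members here and for a longer form below are counted as genes, which can have several windows. Such counts are not on the scale of single windows. Matches can overlap each other, and each of these was on the strand opposite to the gene. IFIT1 had 2 matches, the first from base -116 to -107 and the second from -103 to -94 before the start. IFIT3 had 2 at each of its starts, from -156 to -147 and from -122 to -113 at the first and from -94 to -85 and from -51 to -42 at the second. IFIT5 had 3, closer to the start, from -45 to -36, from -19 to -10 and from -4 to +6, so that the last is cut by the end of the printed run. The longer form GAAANNGAAACT was also present in 3 of 3 members, against 0.273% of all windows. Its letters AGTTTCACTTTC were identical in the IFIT1 window and at both starts of IFIT3. IFIT1B held no match to the core in its window. These matches are letters in a window and not shown to be bound.

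**Figure D1:**
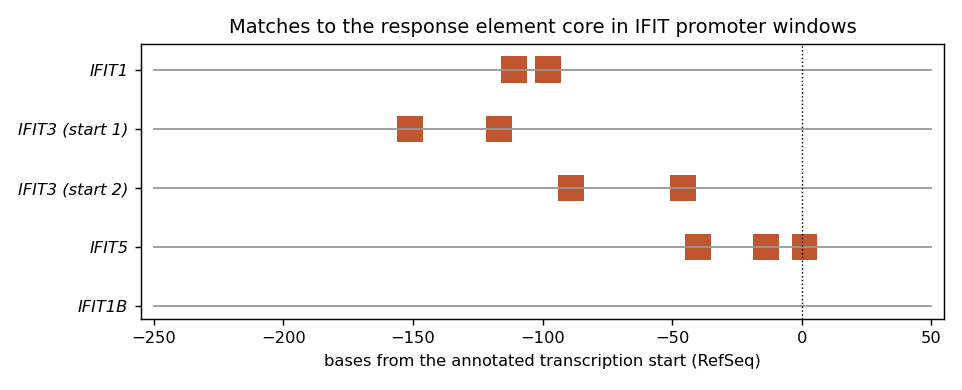
Each line is a promoter window from 250 bases before to 50 bases after an annotated start (x axis, bases from the start), and each block is a match to the core of the response element on either strand. The blocks of IFIT1 and IFIT3 lie between 156 and 42 bases before the start, those of IFIT5 lie within 45 bases of it, and IFIT1B has none.

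Each member was then compared between the labels, and the mean of each was higher in the libraries labelled shANXA2. IFIT1 had the largest difference of the 4, a 3.98-fold estimate, followed by IFIT5 (1.83-fold), IFIT2 (1.81-fold) and IFIT3 (1.42-fold). In bulk RNA, more cells that express a gene and more RNA per cell cannot be told apart. All 4 estimates were above 0, as were 49% of all 15299 genes tested. For IFIT2 and IFIT5, 2 of the 4 members, every library labelled shANXA2 lay above every control, which held for 7.94% of tested genes. Since this comparison chose the members, nothing is read from either count.

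IFIT1, the cap sensor, had 109, 52 and 51 reads in the libraries labelled shCtrl and 266, 133 and 534 reads in those labelled shANXA2. This corresponded to 4.47, 1.59 and 1.64 CPM against 7.79, 4.03 and 18.5 CPM. Control replicate 1 lay above knockdown replicate 2, so the groups overlapped, and knockdown replicate 3 lay far above all others. Group means were 10.1 ± 7.51 CPM in the libraries labelled shANXA2 and 2.56 ± 1.65 CPM in those labelled shCtrl (SD, n = 3), and edgeR put the log2 fold change at 1.99 (standard error 0.58). The estimate was 1.22 without knockdown replicate 3 and 2.64 without control replicate 1. IFIT1 varied by 74.3% of its mean among the libraries labelled shANXA2, where counting error alone gives 6.62%.

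IFIT3, the partner that stabilises IFIT1, was the most abundant member, with 899, 874 and 818 reads in the libraries labelled shCtrl and 1300, 1105 and 1624 in those labelled shANXA2. On the CPM scale this was 36.9, 26.7 and 26.3 against 38.1, 33.5 and 56.2. Here too control replicate 1 lay above knockdown replicate 2, so the groups overlapped. The means were 42.6 ± 12 CPM and 29.9 ± 5.98 CPM (SD, n = 3), and the log2 fold change was 0.51 (standard error 0.21). Without knockdown replicate 3 the estimate was 0.26.

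IFIT2, which binds IFIT3 and IFIT1, had 115, 128 and 145 reads in the libraries labelled shCtrl and 314, 189 and 264 reads in those labelled shANXA2. These were 4.71, 3.92 and 4.66 CPM against 9.20, 5.72 and 9.14 CPM, and the groups did not overlap. The means were 8.02 ± 1.99 CPM and 4.43 ± 0.445 CPM (SD, n = 3), with a log2 fold change of 0.86 (standard error 0.23). The lowest library labelled shANXA2 was 1.21 times the highest control. The noncoding gene ENSG00000232110, named RP11-149I23.3 in the files and reported because it shares exonic sequence with IFIT2, had 8.64 ± 3.66 CPM in the libraries labelled shCtrl and 7.33 ± 1.43 CPM in those labelled shANXA2, and its groups overlapped.

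IFIT5, which binds triphosphate RNA as a monomer, had 139, 270 and 236 reads in the libraries labelled shCtrl and 446, 314 and 489 in those labelled shANXA2. The CPM values were 5.70, 8.26 and 7.58 against 13.1, 9.51 and 16.9, without overlap. The means were 13.2 ± 3.72 CPM and 7.18 ± 1.33 CPM (SD, n = 3), and the log2 fold change was 0.87 (standard error 0.24). The gap between the groups was small, as the lowest library labelled shANXA2 was 1.15 times the highest control.

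The relative IFIT1B had 3, 1 and 0 reads in the libraries labelled shANXA2 and 0 in each control. The pseudogene IFIT1P1 on chromosome 13 had 1 read in each group. Both were too low to be tested, and no fold is given for them.

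**Figure D2:**
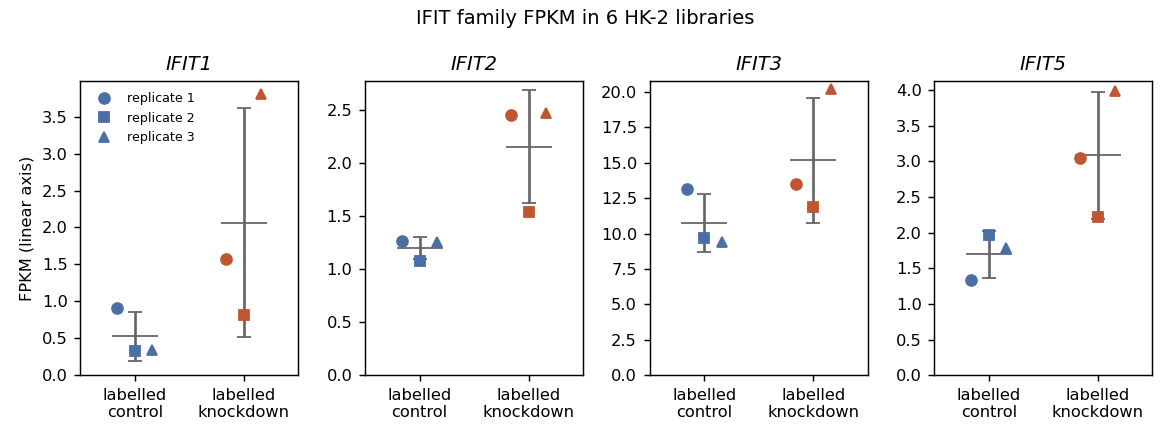
The y axes give FPKM on linear scales from 0, 1 panel per gene, with points for the 3 libraries of each label (shapes mark replicates) and a bar with whiskers for mean ± SD. Knockdown replicate 3 is highest for all 4 genes on this scale, and IFIT1 and IFIT3 overlap between the labels while IFIT2 and IFIT5 do not.

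Levels were compared between the genes on the deposited FPKM scale, which corrects for transcript length. In the libraries labelled shCtrl the order was IFIT3 (10.7 ± 2.06), IFIT5 (1.70 ± 0.330), IFIT2 (1.20 ± 0.107) and IFIT1 (0.527 ± 0.332 FPKM, SD, n = 3). The ranges of neighbours in that order did not overlap over the 3 libraries. In the libraries labelled shANXA2 the order of means was the same, at 15.2 ± 4.41, 3.08 ± 0.886, 2.16 ± 0.537 and 2.07 ± 1.55 FPKM. There only IFIT3 stood clear of the next gene. The ranges of IFIT5 and IFIT2 overlapped, though IFIT5 was higher within each of the 3 libraries, and IFIT1 and IFIT2 could not be ranked, as IFIT2 was higher in 2 of 3 libraries.

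The composition of the family was described as the share of each gene in the summed FPKM of the 4. The sum was 16.6, 13.1 and 12.8 FPKM in the libraries labelled shCtrl and 20.6, 16.4 and 30.5 FPKM in those labelled shANXA2, so control replicate 1 and knockdown replicate 2 were nearly level. IFIT3 made up 73.5% to 78.9% of the sum in the libraries labelled shCtrl and 65.6% to 72.1% in those labelled shANXA2, without overlap. The share of IFIT1 was 5.47%, 2.52% and 2.65% against 7.68%, 4.99% and 12.5%, with control replicate 1 above knockdown replicate 2. IFIT2 took 7.63% to 12% and IFIT5 7.99% to 15.1% over the 6 libraries, with overlapping groups.

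**Figure D3:**
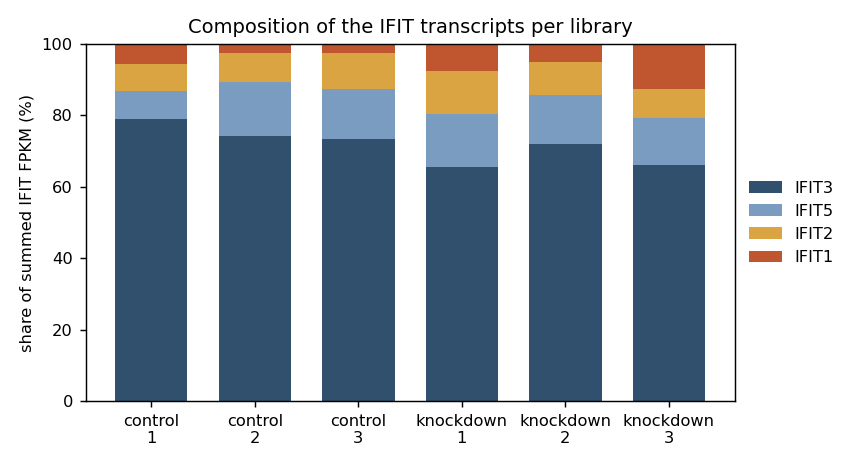
Stacked bars give the percentage of the summed FPKM of the 4 IFIT genes taken by each gene (y axis) in each of the 6 libraries (x axis). IFIT3 takes the largest part of every bar, from 65.6% to 78.9%, and the IFIT1 part is largest in knockdown replicate 3, at 12.5%.

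The members did not order the libraries in the same way. Among the libraries labelled shANXA2, replicate 2 was lowest for 4 of 4 members, and replicate 3 was highest for 3, with IFIT2 highest in replicate 1 on the CPM scale by a small margin. Among the controls, replicate 1 was highest for 3 members and lowest for IFIT5. IFIT1 and IFIT3 followed each other most closely, with a Pearson correlation of log2 CPM of 0.98 over the 6 libraries. The lowest was that of IFIT3 and IFIT5, at 0.69. After removing the group means the correlations were 0.99 for IFIT1 with IFIT3 and 0.33 for either of them with IFIT5. Control replicate 1 and knockdown replicate 3 were the highest of their groups for both IFIT1 and IFIT3. They also held the fewest reads and the fewest detected genes, and the part of this in the correlations was not tested. The correlations are descriptions over 6 libraries, and all members share the group difference and the sequencing depth.

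To place the family in its pathway, lists of interferon genes were compared across the same libraries with the edgeR quasi-likelihood test over all 15299 genes. At a Benjamini-Hochberg adjusted p of 0.05 it called 0 genes (0% of genes tested), hence 0 in each list, while 1251 genes (8.18%) had an unadjusted p under 0.05, 590 of them higher (3.86%) and 661 lower (4.32%). DESeq2 gave 28 higher (0.17%) and 3 lower genes (0.0182%) of 16467. All libraries labelled shANXA2 lay above all controls for 7.94% of genes and below them for 7.7%. The median log2 fold change of all tested genes was -0.01.

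Of the ligands, 4 of 21 interferon genes were listed and none had enough reads to be tested. IFNB1, the beta interferon gene, had 1, 3 and 0 reads in the libraries labelled shANXA2 and 0 in each control. Ligand transcripts were thus at the limit of detection in both groups.

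In the receptor and ISGF3 list, 11 of 12 genes were tested, 8 estimates were above 0 and 0 passed in either direction by edgeR (3 higher and 0 lower at an unadjusted p under 0.05) or by DESeq2. The median log2 fold change was 0.19, and it ranged from 0.067 when knockdown replicate 2 was left out to 0.35 when control replicate 3 was. In 2 of the 11 genes the libraries labelled shANXA2 lay above all controls (7.94% of all tested genes) and in 0 below them (7.7%). STAT2, a subunit of ISGF3, had 22.3 ± 4.33 CPM in the libraries labelled shANXA2 and 16.0 ± 2.39 CPM in those labelled shCtrl without overlap, a log2 fold change of 0.48 (standard error 0.18). USP18, which damps receptor signalling and is itself induced by interferon, had 8.59 ± 3.79 and 3.75 ± 0.839 CPM in the same order with overlap, an estimate of 1.19. The estimates of the lambda interferon receptor gene IFNLR1 and the inhibitor SOCS1 were 0.61 and 0.39, with overlap in each. IRF9 had 5 reads in all and was not tested.

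Of the RNA sensors and IRFs, 15 of 16 genes were listed and tested, 13 estimates were above 0, and the median was 0.23, or 0.097 when control replicate 1 was left out. In 5 genes the libraries labelled shANXA2 lay above all controls (7.94% of all tested genes) and in 1 below them (7.7%). By edgeR 0 passed (5 higher and 0 lower at an unadjusted p under 0.05), and by DESeq2 3 were higher, IFIH1, DHX58 and IRF7. IFIH1, the sensor of long double-stranded RNA, had 4.30, 4.28 and 4.11 CPM in the libraries labelled shCtrl and 9.32, 10.2 and 12.7 CPM in those labelled shANXA2. The groups did not overlap, and its edgeR log2 fold change was 1.34 (standard error 0.19, edgeR adjusted p 0.156). DHX58, a regulator of these sensors, and IRF7, which amplifies interferon transcription, had estimates of 1.40 and 1.33 without overlap. DDX58, the sensor RIG-I of triphosphate RNA, had 10.6 ± 1.77 and 7.96 ± 0.693 CPM without overlap (estimate 0.42), and the kinase gene IKBKE had an estimate of 0.59 with overlap. Picked after their values were seen, TRIM25, a ubiquitin ligase gene that acts on RIG-I, was the fifth gene separated upwards (estimate 0.48), and MAVS, the adaptor of these sensors, was the gene separated downwards, with 128.3 ± 7.4 CPM in the libraries labelled shANXA2 and 144.5 ± 3.12 CPM in those labelled shCtrl (estimate -0.17). The kinase gene TBK1 had an estimate of -0.16 with overlap.

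The other interferon-induced effectors gave 28 of 29 tested estimates above 0 (49% of all genes), 21 of 29 separated upwards (7.94% of all genes) and a median log2 fold change of 1.19, against 0.86 for the 4 IFIT genes. By edgeR 0 passed in either direction (22 higher and 0 lower at an unadjusted p under 0.05), and by DESeq2 14 were higher. This list, like the others, was chosen with earlier results of these data known, so its counts are a description. ISG15, a ubiquitin-like modifier, had 14.4 ± 1.76 CPM in the libraries labelled shCtrl and 43.2 ± 15.6 CPM in those labelled shANXA2. MX1, a dynamin-like GTPase, had 0.908 ± 0.178 and 3.37 ± 1.89 CPM in the same order. XAF1 and RTP4, with 28 and 14 reads in all, were not tested. The widest estimates were those of MX2, OAS2, IFI27 and IFI6, of which all but IFI6 had few reads in the controls. MX2, another GTPase of that kind, had 1 read in the controls and 111 in the libraries labelled shANXA2. OAS2, a synthase of oligoadenylates that activate RNase L, had 11 and 566 reads, IFI27 had 29 and 218, and IFI6 had 1293 and 9711. Knockdown replicate 3 held 123 of the 218 reads of IFI27 and 5462 of the 9711 reads of IFI6. When it was left out, the log2 estimates went from 2.83 to 2.10 for IFI27 and from 2.82 to 2.09 for IFI6. The summed level of this list was 876, 741 and 840 CPM in the controls and 1325, 1170 and 1701 CPM in the libraries labelled shANXA2, where replicate 3 was highest and replicate 2 lowest, as for the IFIT family mean. The core of the response element was found in at least 1 window for 20 of the 27 genes of this list that had a promoter window. This counts genes, which can have several windows, and is not on the scale of the 3.57% of single windows.

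**Figure D4:**
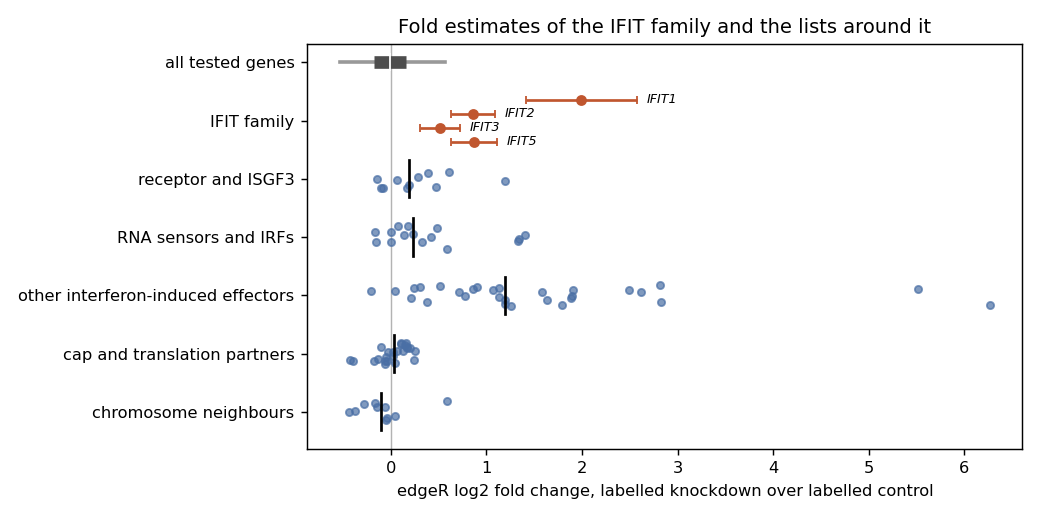
The x axis gives the edgeR log2 fold change of the libraries labelled shANXA2 over those labelled shCtrl. For all tested genes the thick bar spans percentiles 25 to 75 and the thin line percentiles 5 to 95, IFIT genes carry their standard error, and other points are single tested genes with a vertical line at the list median. The IFIT estimates lie between 0.51 and 1.99, the effectors have a median of 1.19, and the medians of the other lists lie between -0.10 and 0.23.

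Genes of the messenger RNA cap and of translation were examined as well. In the list of cap enzymes and translation factors 24 of 25 genes were tested, 14 estimates were above 0, 0 passed by edgeR (1 higher and 1 lower at an unadjusted p under 0.05) or DESeq2, and the median was 0.04, with a range of 0.014 to 0.074 when control replicate 1 or control replicate 3 was left out. In 3 of the 24 the libraries labelled shANXA2 lay above all controls (7.94% of all tested genes) and in 2 below them (7.7%). CMTR1, the enzyme that adds the first ribose methylation that IFIT1 reads as self, had 63.1 ± 4.07 CPM in the libraries labelled shANXA2 and 52.9 ± 4.90 CPM in those labelled shCtrl, without overlap and with an estimate of 0.25. CMTR2, which methylates the next ribose, had 11.7 ± 1.25 and 15.5 ± 2.07 CPM, without overlap and with an estimate of -0.40. The exonuclease gene XRN1 had an estimate of -0.43, and the initiation factor genes EIF3C and EIF3E, whose complex IFIT proteins bind, had estimates of 0.24 and -0.18, with overlap in each. Of the 17 genes of this list with a promoter window, 2 held the core of the response element in at least 1 window.

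Neighbours on chromosome 10 were compared to see whether the difference extended beyond the IFIT genes. Of 18 neighbours 13 were listed and 10 tested, with 2 estimates above 0. In 1 gene the libraries labelled shANXA2 lay above all controls (7.94% of all tested genes) and in 0 below them (7.7%). The median was -0.10 (-0.0096 when control replicate 2 was left out and -0.21 when knockdown replicate 3 was). By edgeR 0 passed (0 higher and 1 lower at an unadjusted p under 0.05), and by DESeq2 0 passed. LIPA, whose body spans most of the cluster, had 57.2, 56.9 and 54.8 CPM in the libraries labelled shCtrl and 51.5, 52.9 and 58.4 CPM in those labelled shANXA2, with overlap and an estimate of -0.05. SLC16A12, a transporter gene 8.69 kb beyond IFIT5, had 13.7 ± 1.84 CPM in the libraries labelled shANXA2 and 13.3 ± 3.41 CPM in the controls and an estimate of 0.04, which turned to -0.16 when control replicate 1 was left out and to -0.08 when knockdown replicate 3 was. Farther out, the estimates were -0.17 for the death receptor gene FAS, 0.59 for the smooth muscle actin gene ACTA2, -0.06 for STAMBPL1, -0.44 for the pantothenate kinase gene PANK1, -0.28 for the kinesin gene KIF20B, -0.04 for RPP30, -0.37 for ANKRD1 and -0.14 for PCGF5. The groups overlapped for each of these except ACTA2. CH25H, a cholesterol hydroxylase gene, and HTR7 had 4 and 13 reads in all and were, like IFIT1B, not tested. The core of the response element was found in at least 1 window for 1 of the 18 neighbours, all of which had a promoter window.

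**Figure D5:**
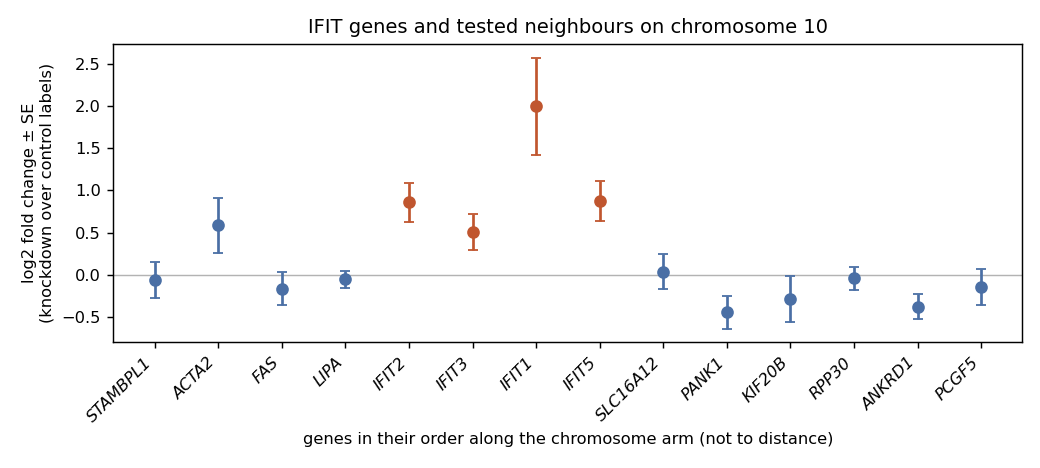
Points give the edgeR log2 fold change with its standard error (y axis) for the 4 IFIT genes and their 10 tested neighbours, placed in order along chromosome 10 and not to distance. The IFIT genes have estimates of 0.51 to 1.99, and the neighbours lie between -0.44 and 0.59.

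Genes whose pattern over the 6 libraries was most like the mean standardised profile of the family were ZNHIT3, FAH, MCM2, MX1 and MRPL37, with Pearson correlations of 0.991, 0.990, 0.989, 0.989 and 0.988 over 6 libraries. Except for MX1 these genes had small differences, with log2 fold changes of 0.17 for ZNHIT3, 0.24 for FAH, 0.20 for MCM2 and 0.28 for MRPL37. With 6 libraries such a ranking is unstable, as leaving out 1 library kept 0 to 4 of the 10 nearest genes. The 29 tested effectors had a median correlation of 0.90 with the profile, against 0.0009 for all genes. Their correlations ranged from -0.15 to 0.99, and 8 of the 29 were among the 100 nearest of 15295 genes. The family profile also holds the group difference that chose the members, so these correlations are a description only.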

How the data were processed

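Raw read counts per gene, not normalised, were deposited by the authors for 26899 genes, together with FPKM values rounded by the authors for 26803 genes. The processing notes of the submitters name bcl2fastq, TopHat2, edgeR and GRCh38, but not the counter, annotation release, strand setting or treatment of reads with several matches, which are not given in the labels or file headers. For the 4 IFIT genes the FPKM divided by the counts per library differed by an SD of at most 0.0159 on the log2 scale, so FPKM adds no independent measurement.

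Counts were fitted with edgeR 4.0.16 in R 4.3.3 (TMM scaling, low-count filter with a minimum count of 10 and a total of 15, quasi-likelihood test, 2-sided), with all 6 libraries, no covariates and Benjamini-Hochberg adjustment over 15299 genes at 0.05. The fits were run on simulated data with changes placed only in genes with higher read counts, which does not cover genes with few reads. Standard errors were derived from the F statistic, and log2 CPM used a prior count of 2. DESeq2 1.42.0, limma 3.58.1, other scalings, no filter, log2(FPKM + 1) and log2(FPKM + 0.1) for genes with a mean FPKM of at least 0.5, a replicate block and the omission of each library were alternatives.

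The members and gene lists were chosen with earlier results of these data known. Named were ANXA2, the family, IFIT1B, all measured neighbours, up to 4 tested genes with the widest fold change and up to 2 defining genes of each other list, and the 5 genes most like the family. Other genes were named after their values were seen. Some genes that the rule names are not reported here. Replicate pairs within a group differed beyond counting noise (chi-square per degree of freedom 9.64 to 49.7), and each library counted as 1 sample. Precision is limited by 3 libraries per group.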

Additional observations from a re-analysis of the deposited data

How the results depend on the processing

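The median log2 fold change of the 4 IFIT genes was 0.86, and it stayed above 0 and within the replicate spread under all 15 alternatives, from 0.54 on log2(FPKM + 1) to 0.88 with upper-quartile scaling, and from 0.70 (without knockdown replicate 3) to 1.06 (without knockdown replicate 2) when 1 library was left out. No member changed sign. On log2(FPKM + 1), a scale that understates the change of low genes, IFIT1 moved to 0.91 and IFIT2 to 0.51.

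Over all genes 0 were called by edgeR, 165 by edgeR without the low-count filter (114 higher, 51 lower) and 31 by DESeq2. Prior degrees of freedom were 5.23 with the filter and infinite without it. Among list genes the calls were 0, 24 and 17, each one higher. Leaving out 1 library gave 0 to 4 genes and 0 to 3 list genes, the highest without knockdown replicate 2. For the other 36 tested genes named by rule, 508 estimates kept direction and call, 21 passed the threshold and 7 changed sign. The sign changes came from leaving out 1 library. SLC16A12 then ranged from -0.16 (without control replicate 1, and -0.08 without knockdown replicate 3) to 0.17, KIF20B from -0.52 to 0.10 and PCGF5 from -0.35 to 0.11 (both highest without control replicate 2), STAMBPL1 from -0.27 to 0.078 (without knockdown replicate 1, and 0.0044 without knockdown replicate 2) and RPP30 from -0.18 to 0.068 (without knockdown replicate 2). The cause was not tested.

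The 10 genes nearest to the family shared 0 to 4 with the ranking without 1 library, 0 with Spearman ranks, and 8 on log2(FPKM + 1). The longer and the shorter motif were each found in 3 of 3 members with a window. Deviations of same-numbered libraries from their group means correlated at -0.06, 0.12 and -0.20. With 3 libraries per group these values cannot settle whether same-numbered libraries were made together. The replicate block gave 0 genes, 0 list genes and a family median of 0.84.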
